A study of Mus musculus with 8 samples.

Results

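The 10 genes described here are known targets of 2 transcription factor systems that respond to the state of the actin skeleton. Ccn1, Ccn2, Ankrd1, Amotl2 and Thbs1 are targets of YAP, and Tagln, Acta2, Myl9, Srf and Actg1 are contractile and actin genes controlled by SRF (serum response factor). They were found in the deposited expression table by matching its Ensembl IDs to gene symbols, and make up 10 of its 22183 genes. The measurements come from sequenced mRNA of whole liver of C57 mice in 3 groups. CTRL (n = 2) is labelled control. APAP_PBS (n = 3) is labelled APAP with PBS, and APAP_MSC (n = 3) APAP with MSC; by their usual readings these are acetaminophen, phosphate-buffered saline and mesenchymal stromal cells. The protocol text, which is the same for all samples, gives a dose of 400 mg/kg APAP by intraperitoneal injection, MSCs by the tail vein 4 hours later and liver collection at 24 hours. Neither the source of the MSCs nor whether CTRL mice received PBS is stated. The labels do not tie each sample to an animal of its own, so the p-values here reflect the spread among these libraries, part or all of which may be technical.

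YAP is a co-activator that enters the nucleus when the Hippo kinases are inactive or when cells are stretched and contractile, and there binds DNA through TEAD proteins. SRF binds the CArG box and is switched on by MRTF cofactors, which actin monomers hold in the cytoplasm until actin filaments assemble, or by ternary complex factors of the Elk family. In liver, YAP activity is associated with organ size and with the response to injury, and SRF targets such as Acta2 and Tagln are used as markers of vascular smooth muscle and of activated stellate cells, the cells that become myofibroblasts.

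Library totals ranged from 16261191 to 24516470 estimated counts, and 12722 genes, all 10 of these among them, passed the filter on low counts. Levels are given as CPM, each gene's count in proportion to its library's size, with sizes scaled by the trimmed mean of M-values (TMM), and log2 fold changes with their standard error (SE) come from edgeR's quasi-likelihood test, with Benjamini-Hochberg adjustment over the 12722 genes and a threshold of 0.05. A level of 3 counts corresponds to between 0.117 and 0.214 CPM. The label of liver was checked on hepatocyte markers such as Alb and Ttr. They summed to 106200 to 120900 CPM in CTRL, 82870 to 98180 in APAP_PBS and 91710 to 99110 in APAP_MSC. The sums were thus high in every library, and those of both APAP groups lay below those of CTRL. On the first principal component (45.0% of the variance) APAP_MSC replicate 2 lay on the side of the CTRL libraries, apart from the other 5 APAP libraries. Leaving it out is reported where it mattered.

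Promoter sequences were taken from RefSeq (GRCm38.p6) as the 250 bases before the RefSeq start, and matched 7 of the 10 genes: Ccn1, Ankrd1, Amotl2, Acta2, Myl9, Srf and Actg1. In the GENCODE M21 annotation, which places some starts further upstream, 250 of the 250 bases of the Ankrd1 window, 217 of the Acta2 window and 136 of the Amotl2 window lie in exons of the gene itself, as do 47, 44 and 13 bases of the Actg1, Myl9 and Srf windows and 0 of Ccn1. The stretches with the binding motifs of both factors are shown because the genes were grouped by these factors. The core TEAD motif GGAATG was sought on both strands, so that it also reads CATTCC, and occurred in 4 of the 7 windows (Ccn1, Ankrd1, Amotl2 and Acta2), against 12.6% of the 32851 mouse windows. Each sequence below reads 5′ to 3′ on the gene's strand, with the TEAD motif in capitals; those of Ankrd1, Amotl2 and Acta2 show the motif with 10 bases on each side.
Ccn1, chr3:145649986-145650235, minus strand: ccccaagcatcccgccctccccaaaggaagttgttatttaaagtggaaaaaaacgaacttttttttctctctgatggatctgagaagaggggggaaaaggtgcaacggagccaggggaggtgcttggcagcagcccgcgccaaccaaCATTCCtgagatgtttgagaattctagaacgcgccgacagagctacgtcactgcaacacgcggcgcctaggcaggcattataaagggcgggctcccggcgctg
Ankrd1, chr19:36120039-36120064, minus strand: cactgccaaaGGAATGaccctctcac
Ankrd1, chr19:36119952-36119977, minus strand: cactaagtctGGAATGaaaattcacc
Amotl2, chr9:102717729-102717754, plus strand: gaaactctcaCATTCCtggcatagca
Acta2, chr19:34255504-34255529, minus strand: gcagaacagaGGAATGcagtggaaga
Counted from the RefSeq start, with the base before it as -1, the Ccn1 motif lay at -103 to -98, those of Ankrd1 at -210 to -205 and -123 to -118, that of Amotl2 at -65 to -60 and that of Acta2 at -146 to -141. The motifs of Ankrd1, Amotl2 and Acta2 lie inside the GENCODE gene spans given with these genes, so by that annotation they are not upstream of the gene. All 3 YAP targets that had a window held the motif, and Acta2 was the single SRF target that did.

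The CArG box, the 10-base SRF motif, occurred without a mismatch in 3 of the 7 windows (Myl9, Srf and Actg1), against 1.47% of the 32851 windows. Its pattern, CC and GG around bases of A or T, is the same on both strands, though the letters of a single match need not be. No match overlaps the TEAD motif in these windows. The parts of these windows before the first annotated exon are shown with the CArG box in capitals.
Myl9, chr2:156775214-156775419, plus strand: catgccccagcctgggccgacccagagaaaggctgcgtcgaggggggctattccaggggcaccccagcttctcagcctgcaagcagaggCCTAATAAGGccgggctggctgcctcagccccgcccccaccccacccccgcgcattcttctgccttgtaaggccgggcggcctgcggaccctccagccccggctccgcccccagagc
Srf, chr17:46556176-46556412, minus strand: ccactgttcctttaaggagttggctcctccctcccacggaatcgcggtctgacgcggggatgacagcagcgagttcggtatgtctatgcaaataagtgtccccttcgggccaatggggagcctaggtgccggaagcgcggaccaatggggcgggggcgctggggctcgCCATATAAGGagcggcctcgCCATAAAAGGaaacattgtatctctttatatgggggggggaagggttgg
Actg1, chr11:120348543-120348745, minus strand: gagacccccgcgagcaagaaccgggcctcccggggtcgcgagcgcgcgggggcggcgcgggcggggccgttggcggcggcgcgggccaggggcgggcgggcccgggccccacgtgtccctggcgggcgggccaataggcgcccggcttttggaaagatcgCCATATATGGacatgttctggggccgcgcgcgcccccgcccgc
Srf, the gene of the factor itself, held 2 boxes, at -82 to -73 and -62 to -53. The Myl9 box lay at -161 to -152 and that of Actg1 at -90 to -81. Allowing 1 mismatch added the Acta2 window, with matches at -84 to -75 and -34 to -25, also inside its GENCODE span, and brought the count to 4 of 7, against 18.6% of all windows. A match describes letters in this window and does not show that a factor was bound.

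**Figure D1:**
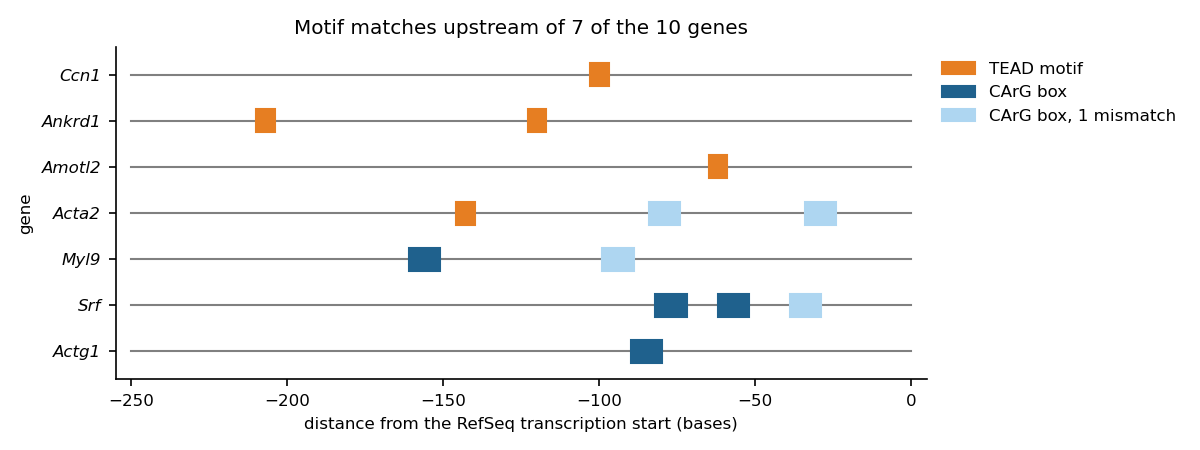
TEAD motifs and CArG boxes in the 250 bases before the RefSeq start of 7 of the genes. The horizontal axis is the distance from that start in bases, each line is 1 gene and each mark a motif match; TEAD motifs stand in Ccn1, Ankrd1, Amotl2 and Acta2, and CArG boxes without a mismatch in Myl9, Srf and Actg1.

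Levels per transcript length, as the FPKM values the authors deposited, placed Actg1, the cytoplasmic gamma actin found in every cell, far above the others in CTRL, with 43.7 ± 1.71 FPKM (SD, n = 2). Tagln (4.55 ± 2.68 FPKM) and Amotl2 (3.73 ± 0.442 FPKM) followed. Myl9, Acta2, Ccn1, Srf and Ccn2 came next with mean FPKM of 3.09, 2.66, 2.64, 2.48 and 1.85, and neighbours among them did not differ beyond the SD of at least 1 of the pair. Thbs1 was at 0.466 ± 0.179 FPKM and Ankrd1 at 0.142 ± 0.0735 FPKM, the lowest of the 10. In APAP_PBS the order of mean FPKM was Actg1 (106), Tagln (13.5), Acta2 (8.59), Amotl2 (7.50), Ccn2 (7.30), Ccn1 (7.04), Thbs1 (6.47), Srf (4.90), Myl9 (4.64) and Ankrd1 (1.13). Of these, Actg1 stood apart from Tagln by more than the SD of either, whereas the genes from Acta2 to Thbs1 lay within an SD of one another. In APAP_MSC Actg1 was at a mean of 66.2 FPKM (n = 3) and Ankrd1 at 0.208 ± 0.132 FPKM, again the highest and the lowest.

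The comparison of APAP_PBS with CTRL asks what acetaminophen with PBS changed against control liver. In the YAP set 3 genes rose: Ankrd1 was 6.89-fold, Ccn1 2.24-fold and Amotl2 1.75-fold higher in APAP_PBS, and these were the genes that passed the test of the 10, all higher, where 4.29% of all tested genes were called higher and 5.97% lower. The SRF set had no gene past the threshold. All 10 log2 fold changes were above 0, with a median of 1.38 against 0.03 over all tested genes; the median was 1.71 for the YAP targets and 1.03 for the SRF targets. With library sizes alone as scaling, the median of all genes shifted up by 0.24 and 81.4% instead of 41.8% of all called genes were higher; 4 of the 10 then passed, Srf in addition. In 9 of the 10, all but Myl9, each APAP_PBS library lay above both CTRL libraries, which held for 25% of all tested genes. At an unadjusted p under 0.05, 7 of the 10 were higher, against 13.4% of all genes. The count of 3 depended on single libraries: 0 passed without CTRL replicate 1, and only Amotl2 passed without CTRL replicate 2, APAP_PBS replicate 1 or APAP_MSC replicate 1, while 4 passed without APAP_MSC replicate 2 (Ankrd1, Amotl2, Srf and Actg1).

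**Figure D2:**
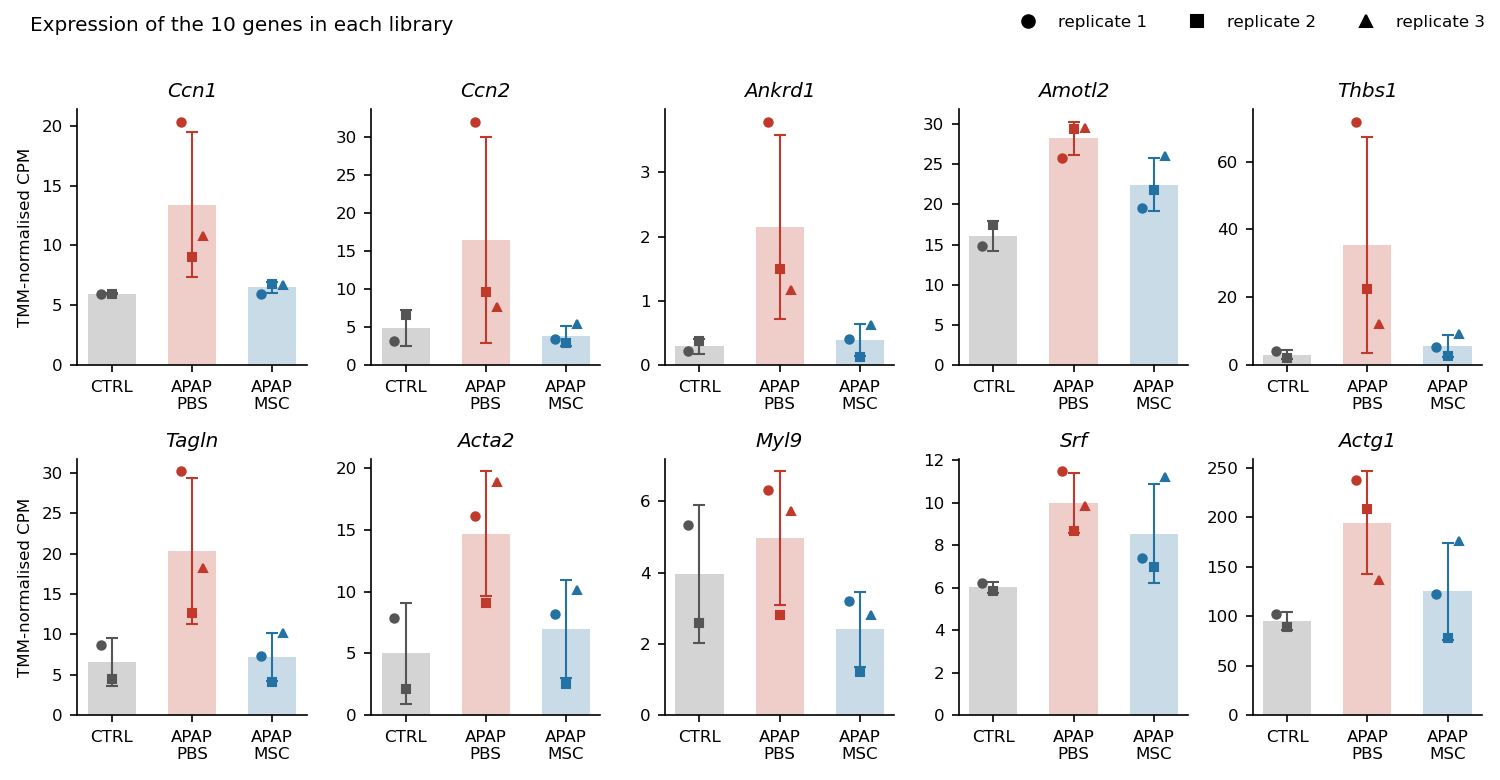
Levels of the 10 genes in each of the 8 libraries, in TMM-normalised CPM on linear axes that start at 0, with 1 panel per gene. Points are libraries, bars group means and error bars the SD (n = 2 for CTRL, 3 for the others); APAP_PBS replicate 1 was the highest library for 8 of the 10 genes, and the APAP_MSC points of Ccn1, Ccn2, Ankrd1, Thbs1 and Tagln all lie under those of APAP_PBS.

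Ccn1 (ENSMUSG00000028195; chr3:145646976-145649981, minus strand), formerly Cyr61, encodes a secreted matricellular protein that binds integrins. Its levels were 5.98 and 5.92 CPM in CTRL, 20.4, 9.07 and 10.8 in APAP_PBS, and 5.95, 6.80 and 6.74 in APAP_MSC. The CTRL and APAP_MSC libraries lay close together and every APAP_PBS library stood above them, replicate 1 by the widest margin. APAP_PBS was above CTRL by 1.17 ± 0.31 on the log2 scale (SE; edgeR adjusted p = 0.0423). Without APAP_PBS replicate 1 the difference was 0.74 (edgeR adjusted p = 0.0583), and the call was also lost without CTRL replicate 1 (edgeR adjusted p = 0.165), CTRL replicate 2 (0.18), APAP_PBS replicate 3 (0.0554) or any 1 APAP_MSC library (0.0563 to 0.0693).

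Ccn2 (ENSMUSG00000019997; chr10:24595442-24598683, plus strand), formerly Ctgf, encodes the related connective tissue growth factor, which promotes matrix production. Its levels were 3.20 and 6.58 CPM in CTRL, 32.1, 9.65 and 7.72 in APAP_PBS, and 3.44, 2.86 and 5.37 in APAP_MSC. APAP_PBS replicate 1 held several times the level of the other 2 APAP_PBS libraries, whose values lay not far above CTRL replicate 2. The difference from CTRL was 1.71 ± 0.75 (edgeR adjusted p = 0.209) and did not pass; without APAP_PBS replicate 1 it was 0.81 (edgeR adjusted p = 0.265). Of the 75-base stretches of its transcripts, 14.6% also occur in the antisense gene Gm15270, and without a stated strand setting reads of the pair cannot be told apart.

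Ankrd1 (ENSMUSG00000024803; chr19:36111961-36120099, minus strand) encodes an ankyrin repeat protein of muscle, also found in the nucleus, that is among the most widely used readouts of YAP. Its levels were 0.214 and 0.376 CPM in CTRL, 3.79, 1.49 and 1.17 in APAP_PBS, and 0.408, 0.134 and 0.623 in APAP_MSC. These rest on few reads: 3 and 8 counts in CTRL, 67, 36 and 20 in APAP_PBS, and 7, 3 and 16 in APAP_MSC, so that CTRL replicate 1 and APAP_MSC replicate 2 were at the level of 3 counts. All 3 APAP_PBS libraries were above all 5 others. Ankrd1 rose in APAP_PBS by 2.78 ± 0.74 (edgeR adjusted p = 0.0366). The call was lost without CTRL replicate 1 (edgeR adjusted p = 0.164), CTRL replicate 2 (0.133), APAP_PBS replicate 1 (0.124), APAP_PBS replicate 2 (0.0506) or APAP_MSC replicate 1 (0.0591).

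Amotl2 (ENSMUSG00000032531; chr9:102716672-102733418, plus strand) encodes an angiomotin-like junction protein that binds and restrains YAP, and is itself a YAP target. Its levels were 14.8 and 17.4 CPM in CTRL, 25.8, 29.4 and 29.5 in APAP_PBS, and 19.6, 21.8 and 26.0 in APAP_MSC. It varied least within APAP_PBS of the 10 genes, with a coefficient of variation of 7.35%, and APAP_MSC lay between the 2 other groups with its replicate 3 within the APAP_PBS range. Amotl2 rose in APAP_PBS by 0.80 ± 0.15 (edgeR adjusted p = 0.00817), a smaller difference than that of Ankrd1 but with the smallest p of the 10. Of the 17 alternatives tried it failed only the one that left out CTRL replicate 1 (0.70, edgeR adjusted p = 0.0674).

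Thbs1 (ENSMUSG00000040152; chr2:118111876-118127133, plus strand) encodes thrombospondin 1, a secreted glycoprotein that activates TGF-beta and is also stored in platelets. Its levels were 4.06 and 2.12 CPM in CTRL, 71.8, 22.5 and 12.2 in APAP_PBS, and 5.48, 2.68 and 9.07 in APAP_MSC. The span over the 8 libraries was 33.9-fold, the widest of the 10 genes, and the coefficient of variation within APAP_PBS was 89.7%. APAP_PBS exceeded CTRL by 3.57 ± 1.07 (edgeR adjusted p = 0.102), which did not pass even though the groups did not overlap. Platelet and megakaryocyte markers summed to between 6.50 and 12.2 CPM in APAP_PBS, 2.35 and 3.76 in CTRL and 6.49 and 7.41 in APAP_MSC, and Itgb3, an integrin subunit of platelets that other cells also carry, rose in APAP_PBS by 1.70 ± 0.33 (edgeR adjusted p = 0.00907). Gp9 and Gp1bb, which define platelets, were at 0 in most libraries, and the part of platelets in the Thbs1 levels was not tested.

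Tagln (ENSMUSG00000032085; chr9:45929619-45936058, minus strand) encodes transgelin (SM22-alpha), an actin-binding protein of smooth muscle and myofibroblasts. Its levels were 8.69 and 4.51 CPM in CTRL, 30.2, 12.6 and 18.2 in APAP_PBS, and 7.35, 4.12 and 10.1 in APAP_MSC. APAP_PBS libraries were all higher than the rest, replicate 2 by the least. APAP_PBS exceeded CTRL by 1.64 ± 0.54 (edgeR adjusted p = 0.113), a difference that did not pass; DESeq2 called it (adjusted p = 0.00111), as it did 5.81% of all genes in the higher direction. Of its 75-base stretches, 53.3% also occur in transcripts of the antisense gene Gm48529 or of Pcsk7 on the opposite strand, so part of these counts cannot be assigned with certainty.

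Acta2 (ENSMUSG00000035783; chr19:34241090-34255590, minus strand) encodes alpha smooth muscle actin, the usual marker of myofibroblasts. Its levels were 7.90 and 2.12 CPM in CTRL, 16.1, 9.07 and 18.9 in APAP_PBS, and 8.22, 2.51 and 10.2 in APAP_MSC. The 2 CTRL libraries differed from each other more than CTRL replicate 1 did from APAP_PBS replicate 2, and APAP_MSC ran from close to the lower CTRL library to above APAP_PBS replicate 2. The difference of APAP_PBS from CTRL was 1.60 ± 0.79 (edgeR adjusted p = 0.262). Myl9 (ENSMUSG00000067818; chr2:156775420-156781658, plus strand), the regulatory light chain of smooth muscle myosin, had levels of 5.34 and 2.59 CPM in CTRL, 6.33, 2.82 and 5.73 in APAP_PBS, and 3.21, 1.21 and 2.80 in APAP_MSC. Its groups overlapped, and the difference of 0.34 ± 0.48 (edgeR adjusted p = 0.713) turned to -0.11 without CTRL replicate 2.

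Srf (ENSMUSG00000015605; chr17:46548329-46556175, minus strand), the factor's own gene and one of its targets, had levels of 6.20 and 5.83 CPM in CTRL, 11.5, 8.66 and 9.83 in APAP_PBS, and 7.41, 6.98 and 11.2 in APAP_MSC. It lay in a narrow range, with a span of 1.97-fold over the 8 libraries, and all APAP_PBS libraries were above both CTRL libraries. The difference was 0.73 ± 0.23 (edgeR adjusted p = 0.0654), which missed the threshold and passed without APAP_MSC replicate 2 (0.0418) or replicate 3 (0.0208). An antisense lincRNA, Gm26904, overlaps it. Actg1 (ENSMUSG00000062825; chr11:120345690-120348542, minus strand), the most abundant of the 10, had levels of 102 and 88.6 CPM in CTRL, 238, 209 and 137 in APAP_PBS, and 122, 77.4 and 176 in APAP_MSC. The APAP_PBS libraries were again all above CTRL, by 1.03 ± 0.36 (edgeR adjusted p = 0.127), and the gene passed without APAP_MSC replicate 2 (edgeR adjusted p = 0.0353). For Actg1, 33.5% of the 75-base stretches recur in 10 other genes, mainly processed pseudogenes such as Gm12715, which makes its level uncertain.

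The comparison of APAP_MSC with APAP_PBS asks what MSC injection changed in injured liver. No gene of either set passed the test. All 10 differences were below 0, with a median of -1.05 against -0.01 over all tested genes; the YAP targets had a median of -2.06 and the SRF targets of -1.04. Ccn1, Ccn2, Ankrd1, Thbs1 and Tagln, or 5 of the 10, were lower in every APAP_MSC library than in any APAP_PBS library, which held for 7.04% of all tested genes. By edgeR's quasi-likelihood test 0 of the 10 passed, where 0.00786% of all genes did, namely the chemokine gene Cxcl1 alone. At an unadjusted p under 0.05, 7 of the 10 were lower, against 3.7% of all genes. DESeq2 called 1 of the 10, Tagln (adjusted p = 0.016), with 0.189% of all genes called lower, and limma on log2 FPKM called 0. The 3 APAP_PBS libraries are shared with the comparison against CTRL, so high values there enter both comparisons, in the one upward and in the other downward.

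**Figure D3:**
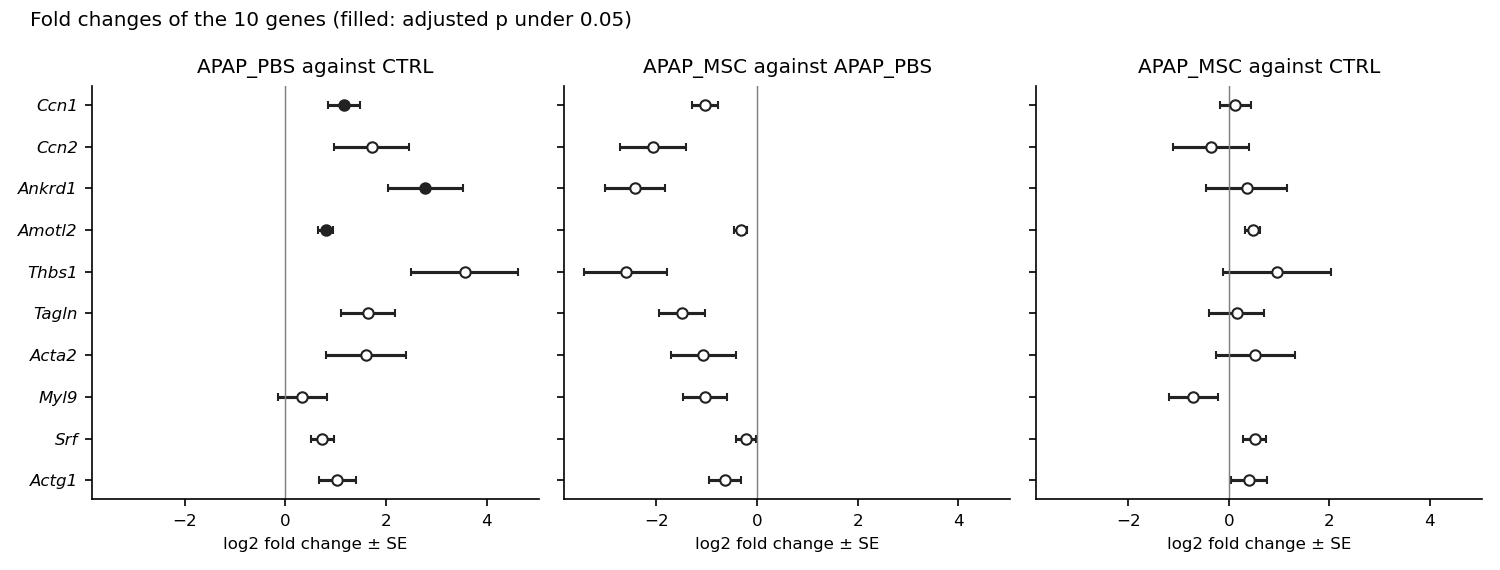
Log2 fold changes of the 10 genes in the 3 comparisons, with bars of 1 SE from edgeR. Filled symbols passed the adjusted threshold; these are Ccn1, Ankrd1 and Amotl2 in APAP_PBS against CTRL, and none in the 2 comparisons with APAP_MSC.

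Thbs1 had the largest difference, with 5.75 ± 3.20 CPM (SD, n = 3) in APAP_MSC against 35.5 ± 31.9 in APAP_PBS, or -2.61 ± 0.83 on the log2 scale (edgeR adjusted p = 0.704). Ankrd1 had 0.389 ± 0.245 against 2.15 ± 1.43 CPM, or -2.43 ± 0.60 (edgeR adjusted p = 0.53, unadjusted 0.0018). Ccn2 had 3.89 ± 1.31 against 16.5 ± 13.5 CPM, or -2.06 ± 0.65 (edgeR adjusted p = 0.698). In these 3 matrix and readout genes the SD of APAP_PBS was between 66.4% and 89.7% of its mean. That of APAP_MSC was between 33.76% (Ccn2) and 63.05% (Ankrd1) of its own, lower mean. Ccn1 had 6.50 ± 0.473 against 13.4 ± 6.07 CPM, or -1.04 ± 0.27 (edgeR adjusted p = 0.554, unadjusted 0.00303). Amotl2, the YAP target that restrains YAP, had a difference of -0.33 ± 0.13 (edgeR adjusted p = 0.728) and overlapped.

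Among the SRF targets, Tagln had 7.20 ± 3.01 against 20.3 ± 8.99 CPM, or -1.49 ± 0.46 (edgeR adjusted p = 0.696). Acta2 differed by -1.07 ± 0.65 (edgeR adjusted p = 0.807) and Myl9 by -1.04 ± 0.44 (edgeR adjusted p = 0.743). In both genes the groups overlapped, and APAP_MSC replicate 2 was the lowest APAP library. Actg1 differed by -0.63 ± 0.32 (edgeR adjusted p = 0.774) and Srf by -0.22 ± 0.19 (edgeR adjusted p = 0.856). For these 2 genes APAP_MSC replicate 3 lay inside the APAP_PBS range, above its mean in Srf.

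APAP_PBS replicate 1 and APAP_MSC replicate 2 held many of the extremes. The former was the highest of the 8 libraries for 8 of the 10 genes, all but Amotl2 and Acta2, and the latter the lowest for 5 (Ccn2, Ankrd1, Tagln, Myl9 and Actg1). Without APAP_PBS replicate 1 the median difference over the 10 genes was 0.86 for APAP_PBS against CTRL and -0.91 for APAP_MSC against APAP_PBS; Thbs1 was then at -1.59 and Ccn2 at -1.15 in the latter. Without APAP_MSC replicate 2 the latter median was -0.89, and 3 of the 10 genes had an unadjusted p under 0.05. All 10 differences remained below 0 in both cases.

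**Figure D4:**
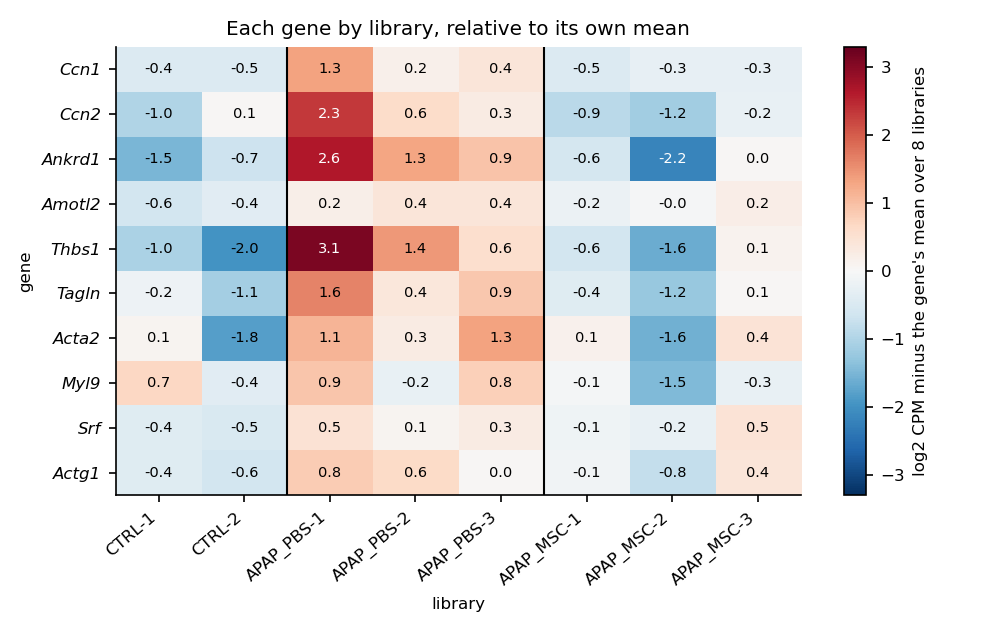
Levels of the 10 genes per library as log2 CPM minus the gene's own mean over the 8 libraries, given by colour and number. APAP_PBS replicate 1 has the darkest red, with Thbs1 at 3.11 and Ankrd1 at 2.64, and APAP_MSC replicate 2 is below the mean for every gene.

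APAP_MSC was then compared with CTRL, which asks how far liver after APAP and MSCs stood from control. None of the 10 genes passed edgeR's quasi-likelihood test, where 5.84% of all tested genes did, and the median difference was 0.38 against 0.01 over all genes. Amotl2 (0.48 ± 0.15, edgeR adjusted p = 0.0875) and Srf (0.51 ± 0.23, edgeR adjusted p = 0.219) were the 2 genes with every APAP_MSC library above both CTRL libraries, which held for 17.8% of all genes, and the 2 with an unadjusted p under 0.05, which held for 10.6% in the higher direction. DESeq2 called 0 of the 10, where it called 4.08% of all genes higher. Limma on log2(FPKM + 1) called Amotl2 alone (adjusted p = 0.0464), where it called 3.91% of all genes higher, in a setting that raised the median of all genes by 0.12. With library sizes alone that median rose by 0.19, the share of called genes that were higher went from 43.2% to 76.2%, and Amotl2 was again the single gene of the 10 that passed.

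The matrix genes had wide errors, and each of their differences from CTRL was smaller than its SE, although that of Thbs1 was the largest of the 10. Ccn1 differed by 0.13 ± 0.31 (edgeR adjusted p = 0.862), Ccn2 by -0.35 ± 0.76 (edgeR adjusted p = 0.85) and Thbs1 by 0.96 ± 1.07 (edgeR adjusted p = 0.681). Ankrd1 was at 0.36 ± 0.80 and Tagln at 0.16 ± 0.54 (edgeR adjusted p = 0.851 and 0.913). Their errors are close to those of the comparison of APAP_PBS with CTRL, so a return to control levels and a remaining rise of about 1 SE cannot be told apart. Acta2 (0.53 ± 0.79), Actg1 (0.40 ± 0.36) and Myl9 (-0.70 ± 0.49) had edgeR adjusted p of 0.766, 0.589 and 0.453.

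To see how the 2 sets moved across libraries, each gene's log2 CPM was standardised over the 8 libraries and averaged within its set. The YAP targets stood at -0.96 and -0.67 SD units in CTRL, 1.67, 0.70 and 0.58 in APAP_PBS, and -0.56, -0.75 and -0.01 in APAP_MSC. All 3 APAP_PBS libraries were above the other 5. The SRF targets stood at -0.20 and -1.11 in CTRL, 1.31, 0.32 and 0.77 in APAP_PBS, and -0.20, -1.29 and 0.40 in APAP_MSC. Here APAP_MSC replicate 3 lay above APAP_PBS replicate 2, and CTRL replicate 2 and APAP_MSC replicate 2 were the lowest 2 libraries.

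Likeness to these mean profiles was measured as the root mean square difference over the 8 libraries among 8782 other genes of at least 5 CPM. Each target entered the mean of its own set, whereas the other genes named are the closest 5 picked from all 8782. With so many candidates and 8 libraries, close matches are found by the picking itself. The values of targets and of other genes are therefore not on equal terms. Closest to the YAP targets were Cebpb (0.171), Akap2 (0.228), Klf3 (0.238), Fmo5 (0.249) and Nepro (0.255), where the 5 targets themselves ranged from 0.203 (Ankrd1) to 0.611 (Amotl2). Cebpb, a transcription factor of the acute phase response in liver, had 45.9 and 44.9 CPM in CTRL, 123.5, 83.2 and 80.7 in APAP_PBS, and 55.4, 43.0 and 66.0 in APAP_MSC. Closest to the SRF targets were Zbtb21 (0.24), Midn (0.298), Mid1 (0.302), Csrp1 (0.306) and Fam160a1 (0.312), where the targets ranged from 0.206 (Tagln) to 0.596 (Myl9). Csrp1, a LIM-domain protein of smooth muscle that is itself in the list of actin and contractile genes, had 13.5 and 12.1 CPM in CTRL, 20.9, 14.3 and 16.2 in APAP_PBS, and 13.5, 10.5 and 14.3 in APAP_MSC.

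The upstream regulators were measured in the same libraries. Of 19 genes of the Hippo pathway, YAP, TAZ and TEAD, 2 rose and 0 fell in APAP_PBS against CTRL. Over all tested genes 4.29% were called higher and 5.97% lower. Wwtr1, which encodes the YAP paralogue TAZ, had 13.0 and 15.3 CPM in CTRL and 21.1, 22.4 and 22.7 in APAP_PBS, and rose by 0.64 ± 0.13 (edgeR adjusted p = 0.00996). Wwc1 (KIBRA), an upstream activator of the Hippo kinases, rose by 0.70 ± 0.11 (edgeR adjusted p = 0.00347), from 42.7 and 48.4 to 71.2, 72.8 and 78.0 CPM. Yap1 itself had 53.3 and 60.3 CPM in CTRL, 58.6, 61.7 and 63.0 in APAP_PBS, and 58.5, 62.2 and 63.2 in APAP_MSC, with differences of 0.10 ± 0.11 (APAP_PBS against CTRL, edgeR adjusted p = 0.585) and 0.01 ± 0.09 (APAP_MSC against APAP_PBS, edgeR adjusted p = 0.995). Vgll4, which competes with YAP for TEAD, differed by -0.54 ± 0.18 (edgeR adjusted p = 0.0802). Tead4 was low, with 2 and 4 counts in CTRL and 11, 24 and 6 in APAP_PBS (0.142 and 0.188 against 0.622, 0.994 and 0.351 CPM), so that its CTRL values were near the level of 3 counts; it did not pass (edgeR adjusted p = 0.113). In APAP_MSC against APAP_PBS 0 of the 19 passed, where 0.00786% of all tested genes did. Tead1 was at -0.37 ± 0.15 (edgeR adjusted p = 0.732) and the kinase gene Stk3 at -0.39 ± 0.17 (edgeR adjusted p = 0.746). In APAP_MSC against CTRL Wwc1 alone was called, and it was higher (0.49 ± 0.11, edgeR adjusted p = 0.0252). There 5.84% of all tested genes were called in either direction.

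A wider signature of YAP and TEAD targets from other cell types was read without the genes above. Of its 18 genes, of which Lats2 also stands in the Hippo list, 17 were tested. In APAP_PBS against CTRL 0 were called higher and 2 lower, where 4.29% and 5.97% of all tested genes were, and the median was 0.18. Every APAP_PBS library lay above both CTRL libraries in 5 of the 17 and below both in 4. This held for 3179 and 2871 of all 12722 genes. F3, tissue factor, had 4.63 and 3.95 CPM in CTRL and 1.53, 1.70 and 0.936 in APAP_PBS, and fell by 1.61 on the log2 scale (SE 0.36, edgeR adjusted p = 0.0192). Igfbp3, a carrier of insulin-like growth factors, had 14.2 and 23.8 against 13.4, 9.40 and 9.42 CPM and fell by 0.84 (SE 0.22, edgeR adjusted p = 0.0339). F3 was also lower in APAP_MSC than in CTRL (-1.37 ± 0.36, edgeR adjusted p = 0.0484). In APAP_MSC against APAP_PBS 0 of the 17 passed, where 0.00786% of all tested genes did. The median was -0.06, with 6 genes above 0 and 11 below. Nt5e, with the smallest p of the 17, was above 0 (0.95 ± 0.31, edgeR adjusted p = 0.696), and its groups overlapped.

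Of 7 SRF cofactor genes 6 were tested and 0 passed in any comparison. Over all tested genes 4.29% were called higher and 5.97% lower in APAP_PBS against CTRL. In either direction, 0.00786% were called in APAP_MSC against APAP_PBS and 5.84% in APAP_MSC against CTRL. With 6 genes, 0 calls does not set the cofactors apart from all genes. Mrtfa had 5.98 and 4.80 CPM in CTRL, 4.07, 5.18 and 6.20 in APAP_PBS, and 3.44, 3.85 and 5.26 in APAP_MSC, and Mrtfb differed by 0.00 ± 0.14 between APAP_PBS and CTRL (edgeR adjusted p = 0.987). Elk1, a ternary complex factor, differed by 0.34 ± 0.22 (edgeR adjusted p = 0.367). Myocd, the cofactor of smooth muscle, was at or below 0.117 CPM in every library and was not tested.

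Other actin and contractile genes rose in part. Of 32 listed genes 30 were tested, of which 6 rose and 0 fell in APAP_PBS against CTRL, with 24 above 0 and a median of 0.58. Over all 12722 tested genes 4.29% were called higher and 5.97% lower, and 6828 were above 0. Myh9, the heavy chain of nonmuscle myosin IIA, had 114.1 and 122.0 CPM in CTRL and 257.5, 178.1 and 204.1 in APAP_PBS, and rose by 0.85 ± 0.18 (edgeR adjusted p = 0.0133). Actb, beta actin, had 245.9 and 225.5 against 478.7, 412.1 and 353.4 CPM and rose by 0.82 ± 0.20 (edgeR adjusted p = 0.0253). The others were Tpm1 (0.68 ± 0.16), Tagln2 (0.81 ± 0.20), the intermediate filament gene Des (1.18 ± 0.29) and the actin cross-linker Flna (0.96 ± 0.26), with edgeR adjusted p from 0.0203 to 0.0497. In APAP_MSC against APAP_PBS 0 of the 30 passed, where 0.00786% of all tested genes did. The median was -0.31 and 27 were below 0, where 6524 of all 12722 genes were below 0. Filip1l (-0.78 ± 0.21, edgeR adjusted p = 0.561), Des (-0.76 ± 0.25, edgeR adjusted p = 0.696) and Fhl2, at 0.468 to 0.848 CPM in APAP_PBS and at or below the level of 3 counts in each APAP_MSC library, had the smallest p of the list together with Cnn2. Against CTRL the list had 0 called genes in APAP_MSC, where 5.84% of all tested genes were called in either direction. Its median there was 0.04, and Myh9 was at 0.64 ± 0.18 (edgeR adjusted p = 0.0585).

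**Figure D5:**
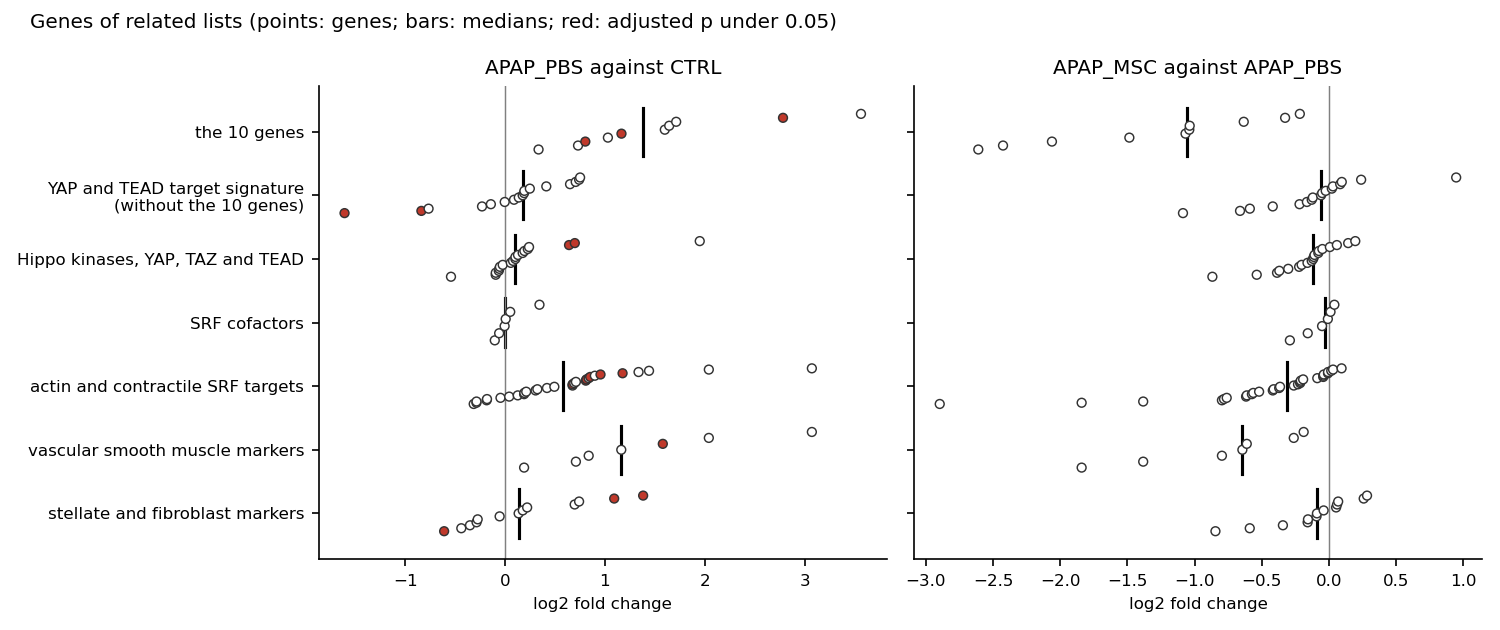
Log2 fold changes of each tested gene in the 10-gene set and in 6 lists of related genes and markers, for APAP_PBS against CTRL and APAP_MSC against APAP_PBS, each panel with its own horizontal scale. Each point is 1 gene, red where it passed the edgeR threshold, and the vertical bar is the list's median; the 10 genes have medians of 1.38 and -1.05, and no point of the second panel is red.

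The libraries are bulk tissue, in which fewer cells of a type and less RNA per cell cannot be told apart, so markers of the cells that express these genes were read beside them. Vascular smooth muscle markers summed to 21.4 and 10.3 CPM in CTRL, 31.1, 22.7 and 43.5 in APAP_PBS, and 24.2, 12.4 and 21.4 in APAP_MSC. APAP_PBS replicate 3, with the highest sum, was also the highest library for Acta2, whereas Tagln, Myl9, Srf and Actg1 were highest in APAP_PBS replicate 1. CTRL replicate 2 and APAP_MSC replicate 2, with the lowest sums, were the lowest for Acta2, Tagln, Myl9 and Actg1. For Srf the 2 CTRL libraries were the lowest. Of 7 tested markers 1 rose in APAP_PBS, Mustn1 (1.58 ± 0.32, edgeR adjusted p = 0.0116), where 4.29% of all tested genes were called higher. All 7 were above 0 with a median of 1.16, where 6828 of all 12722 genes were above 0. The defining gene Myh11 had 10.6 and 3.43 CPM in CTRL, 11.3, 6.79 and 18.8 in APAP_PBS, and 10.3, 3.45 and 7.55 in APAP_MSC. Mustn1 was also higher in APAP_MSC than in CTRL (1.39 ± 0.32, edgeR adjusted p = 0.0305). Of the 8 markers listed, 5 (Myh11, Cnn1, Actg2, Smtn and Lmod1) also stand in the list of actin and contractile genes. The part of smooth muscle in the levels of the SRF targets was not tested.

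Stellate cell and fibroblast markers, the other source of Acta2 and Tagln in liver, summed to 368.1 and 391.5 CPM in CTRL, 350.3 to 367.0 in APAP_PBS and 345.0 to 366.7 in APAP_MSC, so the sums of both APAP groups lay below those of CTRL. Dcn alone had means of 134.5 CPM in CTRL and 129.4 in APAP_PBS. Of 13 tested, the growth factor Hgf (1.09 ± 0.16, edgeR adjusted p = 0.00254) and the receptor Ngfr (1.38 ± 0.24, edgeR adjusted p = 0.00666) rose in APAP_PBS. Colec11 (-0.61 ± 0.14, edgeR adjusted p = 0.0175) fell. Over all tested genes 4.29% were called higher and 5.97% lower. Pdgfra (0.70 ± 0.22, edgeR adjusted p = 0.0734) and Col1a1 (0.74 ± 0.24, edgeR adjusted p = 0.0746) did not pass. Every APAP_PBS library lay above both CTRL libraries in 4 of the 13, these included, and below both in 3. This held for 3179 and 2871 of all 12722 genes. Lrat, which stores retinoids in quiescent stellate cells, differed by 0.18 ± 0.21 (edgeR adjusted p = 0.646).

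Neutrophil markers summed to 2.92 and 2.21 CPM in CTRL, 23.6, 10.1 and 4.91 in APAP_PBS, and 5.25, 3.98 and 3.39 in APAP_MSC. Their order within APAP_PBS, with replicate 1 highest and replicate 3 lowest, was that of Ccn2, Ankrd1, Thbs1 and Actg1. The rest of the 10 genes, Ccn1 and Amotl2 among them, had another order. S100a8 and Retnlg rose in APAP_PBS among 5 tested markers, where 4.29% of all tested genes were called higher. Ly6g and Mpo of the same list were at 0 in most libraries and were not tested. Endothelial markers summed to 218.2 and 282.5 CPM in CTRL, 250.1 to 340.7 in APAP_PBS and 277.8 to 339.2 in APAP_MSC, and 0 of 9 passed in any comparison. Over all tested genes 5.97% were called lower in APAP_PBS against CTRL. In either direction, 0.00786% were called in APAP_MSC against APAP_PBS and 5.84% in APAP_MSC against CTRL. Mesothelial markers stayed at 3.05 CPM or less in every library. The parts of these cells in the levels of the 10 genes were not tested.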

How the data were processed

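Per the labels' protocols, liver RNA was extracted with Trizol, selected on oligo(dT) beads and made into libraries with a NEBNext Ultra kit; no strand setting is stated. The submitters' processing notes name fastp 0.18.0. Which aligner, quantifier, genome build and annotation were used is not given in the sources used here. The table deposited by the authors lists 22183 Ensembl genes, with estimated counts and FPKM in 8 samples. Between 6.39% and 7.46% of the estimated counts per sample are not whole, as happens when reads that match several genes are divided among them; all were rounded before testing, and those of the 10 genes were whole as deposited. FPKM, scaled by the authors to length and library size, was used for levels between genes and as an alternative.

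Symbols and coordinates came from GENCODE M21 on GRCm38, which named 22128 IDs. Sample titles gave the groups. After filterByExpr, genes were scaled with TMM and tested with edgeR 4.0.16 (R 4.3.3; robust glmQLFit, glmQLFTest), with 1 coefficient per group over all 8 libraries and Benjamini-Hochberg adjustment over 12722 genes. The SE is the size of the log2 fold change divided by the root of F. DESeq2 1.42.0, limma 3.58.1 on log2(FPKM + 1) and log2(FPKM + 0.1), other scalings and filters, a replicate block and leaving out each library were alternatives. The edgeR script was tested on simulated counts with 200 changed genes. Library totals of 16261191 to 24516470 set the level of 3 counts at 0.117 to 0.214 CPM, which covers counting error only. No 2 replicates agreed within sampling noise (chi-square per degree of freedom of 13.4 or more). The named genes are the 10 targets, up to 4 genes of each list with the smallest adjusted p, and the 5 genes most like each set; others are given as examples of their list. The 10 genes, the lists and the tests were chosen with earlier results of these data known.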

Additional observations from a re-analysis of the deposited data

How the results depend on the processing

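Of 509 values of the 10 genes under 17 alternatives, 471 kept their direction and their side of the threshold, 16 lost the threshold, 16 gained it and 6 reversed; the cause of these shifts was not tested. The reversals came from leaving out 1 library. Without CTRL replicate 2, Myl9 was at -0.11 in APAP_PBS against CTRL, and Ccn2, Tagln and Acta2 were at 0.31, -0.25 and -0.17 in APAP_MSC against CTRL; without APAP_MSC replicate 3, Ankrd1 and Tagln were at -0.23 and -0.19 there. The opposite ends with 1 library left out were 0.93 for Myl9 in APAP_PBS against CTRL and -0.73 for Ccn2, 0.88 for Ankrd1, 0.69 for Tagln and 1.73 for Acta2 in APAP_MSC against CTRL. The 10 differences of APAP_MSC from APAP_PBS stayed below 0 under all 17 alternatives. Of the 10 genes, DESeq2 called 5 higher in APAP_PBS against CTRL (Thbs1 and Tagln in addition) and 1 lower in APAP_MSC against APAP_PBS, and leaving out 1 library gave 0 to 4 higher in APAP_PBS against CTRL. In APAP_MSC against CTRL, 1 was called higher with library sizes alone and with either FPKM fit.

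In APAP_PBS against CTRL, 546 of the tested genes were called higher and 760 lower; these counts were 1620 and 371 with library sizes alone, 1188 and 326 with log2(FPKM + 1), 1366 and 332 with log2(FPKM + 0.1), 333 and 460 with the replicate block, and 175 to 790 and 303 to 920 with 1 library left out. In APAP_MSC against APAP_PBS they were 0 and 1, 17 and 24 with DESeq2, 0 lower with either FPKM fit or with only the groups compared, and 0 to 1 each way with 1 library left out. In APAP_MSC against CTRL they were 321 and 422; 755 and 236 with library sizes alone, 519 and 698 with DESeq2, 498 and 207 with log2(FPKM + 1), 599 and 206 with log2(FPKM + 0.1), 124 and 170 with only the groups compared, 135 and 186 with the replicate block, and 119 to 657 and 141 to 733 with 1 library left out. Ankrd1 gave no value with only APAP_MSC and CTRL, where it failed the filter.

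The replicate numbers gave no sign of pairing: deviations of same-numbered samples correlated at -0.147 to 0.186 over 7 pairs. The deviations were taken from group means of 2 or 3 libraries, so these values are not independent and cannot exclude pairing. With the replicate block 3 of the 10 genes were called in APAP_PBS against CTRL, namely Amotl2, Tagln and Acta2. Groups of 2 and 3 libraries limit every comparison, the spread within APAP_PBS limits Thbs1, Ccn2 and Ankrd1, and depth limits Ankrd1. Leaving out 1 CTRL library leaves 1, which is then assumed to vary like the other groups.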

Other observations

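Single genes of the marker lists read beside the YAP and SRF targets rose while most of their list did not pass. In APAP_PBS against CTRL 4.29% of all tested genes were called higher. Of 5 tested cholangiocyte markers 1 rose in APAP_PBS against CTRL and 0 fell, with Epcam at -0.05 and Spp1 at 0.15 on the log2 scale, and the list summed to 85.1 and 51.0 CPM in CTRL, 73.8 to 93.7 in APAP_PBS and 52.5 to 58.6 in APAP_MSC. Sox9, a transcription factor of bile duct cells, was the gene that passed. It had 3.85 and 3.62 CPM in CTRL, 11.0, 7.95 and 8.25 in APAP_PBS, and 5.31, 3.18 and 4.44 in APAP_MSC, and rose by 1.28 ± 0.25 (edgeR adjusted p = 0.0102); the difference of APAP_MSC from APAP_PBS was -1.07 ± 0.21 (edgeR adjusted p = 0.364). Of 9 macrophage and monocyte markers 2 rose and 0 fell, with Clec4f at -0.27, Adgre1 at -0.05, Vsig4 at 0.03 and Csf1r at 0.13, and the list summed to 216.6 and 293.2 CPM in CTRL, 221.4 to 364.0 in APAP_PBS and 200.9 to 296.4 in APAP_MSC, with overlap of all groups. Ccr2, the chemokine receptor of inflammatory monocytes, had 1.07 and 1.36 CPM in CTRL, 7.29, 3.89 and 2.69 in APAP_PBS, and 1.17, 1.21 and 1.25 in APAP_MSC, and rose in APAP_PBS by 1.91 ± 0.42 (edgeR adjusted p = 0.0165). Its difference between APAP_MSC and APAP_PBS was -1.93 ± 0.36 (edgeR adjusted p = 0.299), with no overlap of the libraries. Cd68, a lysosomal marker of macrophages, had 6.91 and 6.25 CPM in CTRL, 24.7, 16.4 and 19.2 in APAP_PBS, and 16.3, 10.2 and 22.4 in APAP_MSC, where it overlapped APAP_PBS. These 3 genes were chosen after their values were seen, from the called genes of their lists.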
